A study of Mus musculus with 4 samples.

Results

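The S100 calcium-binding genes were described in the epidermis of newborn mice with and without Skiv2l in keratinocytes. The 10 members, S100a3, S100a4, S100a6, S100a7a, S100a8, S100a9, S100a10, S100a11, S100a14 and S100a16, were taken by gene name from the 54752 genes listed for each library, and the values of an identifier listed more than once were summed. Total RNA from the epidermis of 4 C57BL/6 pups at postnatal day 0 was sequenced, and the study asked how loss of Skiv2l in keratinocytes alters the epidermal transcriptome. In the 2 Skiv2l fl/fl K14-Cre pups, labelled Skiv2lf/fl;K14-Cre, both alleles of Skiv2l are floxed and Cre recombinase is driven by the keratin 14 promoter, and these are called knockout pups here. Skiv2l encodes the helicase of the SKI complex, which feeds RNA to the cytoplasmic exosome. The keratin 14 promoter acts in basal keratinocytes, so melanocytes, leukocytes and dermal cells of the sample can keep the gene. The 2 Skiv2l ctl pups, called control pups, were littermates. By the study's definition this group pools animals with 2 floxed alleles and no Cre (fl/fl), with 1 floxed allele (fl/+), and with 1 floxed allele plus K14-Cre. Which of these genotypes each control pup carried is not given, so a control may carry Cre and 1 deleted allele.

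S100 proteins are small proteins with a pair of EF-hand calcium-binding motifs that mostly act as dimers and expose a binding surface for other proteins when calcium is bound. Inside the cell they bind annexins, cytoskeletal proteins and enzymes, and some, once released, act as alarmins on receptors such as the receptor for advanced glycation end products and Toll-like receptor 4. Most S100 genes lie in the epidermal differentiation complex, and the epidermis is known for inducing several of them in wounds and in psoriasis. The levels here are FPKM, sequenced fragments scaled to transcript length and library size, and every fold change is the difference between group means of log2(FPKM + 1), a scale that makes changes of genes at low FPKM look smaller than they were.

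All 10 members lie on chromosome 3 of the mouse genome build GRCm38, in a pair of blocks. In the first block the S100 genes from S100a1 to S100a9 span 184.7 kb and number 12, of which 8 are members. Along the chromosome the members run S100a14 (90526856 to 90528837), S100a16 (90537254 to 90543151), S100a3 (90560578 to 90602702), S100a4 (90603771 to 90606045), S100a6 (90612882 to 90624181), S100a7a (90654017 to 90658669), S100a8 (90668978 to 90670035) and S100a9 (90692632 to 90695721). S100a9 is on the minus strand and the other members are on the plus strand. The second block, which starts 2824.8 kb further on after 60 protein-coding genes, holds S100a11 (93520488 to 93526287) and S100a10 (93555080 to 93564643) within 44.2 kb.

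The 4 members that were higher in knockout epidermis, S100a6, S100a7a, S100a8 and S100a9, are next to each other and occupy 82.8 kb. The sequence directly before the annotated start of each is shown, since all 4 were called higher, although by different amounts. It was read from the RefSeq promoters of GRCm38.p6 (150 bases, written 5′ to 3′ on the strand of the gene) and ends 1 base before the first annotated start of a coding transcript. Capitals mark matches to the C/EBP letters TTNNGNAA on either strand.
S100a6, chr3:90612732-90612881, plus strand: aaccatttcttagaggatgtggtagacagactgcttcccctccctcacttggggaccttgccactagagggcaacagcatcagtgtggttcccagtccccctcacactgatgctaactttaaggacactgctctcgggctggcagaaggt
S100a7a, chr3:90654152-90654301, plus strand: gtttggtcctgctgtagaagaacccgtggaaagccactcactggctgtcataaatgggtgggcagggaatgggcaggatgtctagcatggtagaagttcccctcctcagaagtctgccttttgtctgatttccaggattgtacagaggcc
S100a8, chr3:90668828-90668977, plus strand: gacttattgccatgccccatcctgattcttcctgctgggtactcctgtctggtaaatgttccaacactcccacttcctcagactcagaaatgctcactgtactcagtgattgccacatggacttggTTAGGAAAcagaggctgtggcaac
S100a9, chr3:90695722-90695871, minus strand: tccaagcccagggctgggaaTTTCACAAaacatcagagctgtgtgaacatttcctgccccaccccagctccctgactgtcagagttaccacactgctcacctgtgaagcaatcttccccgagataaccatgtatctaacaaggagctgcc

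The match before S100a8 begins 24 bases before that start and the match before S100a9 begins 130 bases before it. The other searched letters, TGANTCA for AP-1, GGGNNNNNCC for NF-kB and TATAAA for a TATA box, were not found in these 4 stretches. In the 250 bases before a RefSeq start, searched on both strands, TTNNGNAA occurred in 36.8% of 32851 mouse promoters, GGGNNNNNCC in 45.8%, TATAAA in 12.4% and TGANTCA in 6.75%. RefSeq promoters were matched for 8 of the 10 members, all but S100a10 and S100a14, with 12 windows in all, and no match in them shared a base with a match of another motif. TTNNGNAA occurred in windows of S100a3, S100a8 and S100a9, and TGANTCA in windows of S100a11 and S100a16. GGGNNNNNCC occurred in windows of S100a4, S100a6, S100a7a, S100a11 and S100a16, further from the start than the stretches shown for S100a6 and S100a7a, and TATAAA in windows of S100a3, S100a4 and S100a8. The RefSeq start of S100a8 lies 93 bases inside the GENCODE transcript, so its RefSeq window and the stretch shown differ, and its TATAAA match lies in the RefSeq window only.

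The most frequent ratio of coverage to FPKM over genes, which measures depth, gave between 5.843 and 6.274 aligned gigabases per library. Between 16138 and 17761 genes per library had an FPKM above 0.5, with the fewest in the second knockout pup. Skiv2l itself was at 19.3 and 19.1 FPKM in the control pups and at 10.85 and 8.56 in the knockout pups, so each knockout pup was below both controls. Its log2 fold change was -0.92 (SE 0.12, limma adjusted p = 0.00368). Tested were the 13609 protein-coding genes that exceeded 0.5 FPKM in 1 or more libraries, of which limma called 8.99% higher and 25.4% lower in knockout epidermis at an adjusted p under 0.05. The median log2 fold change over these genes was -0.20, and with each library scaled to the same median it was -0.03, with 13.9% called higher and 11.9% called lower. The keratinocyte markers were abundant in all 4 libraries, with a summed FPKM between 28250 and 32730, but moved in both directions: of 10, Krt14 was called higher and Krt1, Krt15 and Lor lower. For 1 gene and 2 pups a group, the smallest two-sided p of an exact permutation test is 0.333, so every test here is limma's, which shares the spread between pups over all genes. Bulk RNA cannot tell fewer cells of a type from less RNA per cell, which applies to every value here.

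All 10 members passed the filter and were tested. Of the 10, 4 were called higher and 3 lower, against 8.99% and 25.4% of all tested genes. With median scaling 4 were called higher and 0 lower, against 13.9% and 11.9% of all tested genes. At an unadjusted p under 0.05 in limma 3 were lower with median scaling. No share of all tested genes at an unadjusted p is given here for any list. Both knockout pups lay above both control pups for 4 members and below them for 4, against 18.2% and 55.3% of all tested genes, and the groups overlapped for 2. The median log2 fold change of the members was -0.06, against -0.20 for all tested genes. Measured from that all-gene median, S100a10, S100a11 and S100a16 lay 0.09, 0.14 and 0.14 above it on the log2 scale, and S100a14, S100a4 and S100a3 lay at -0.27, -0.50 and -0.78 from it.

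**Figure D1:**
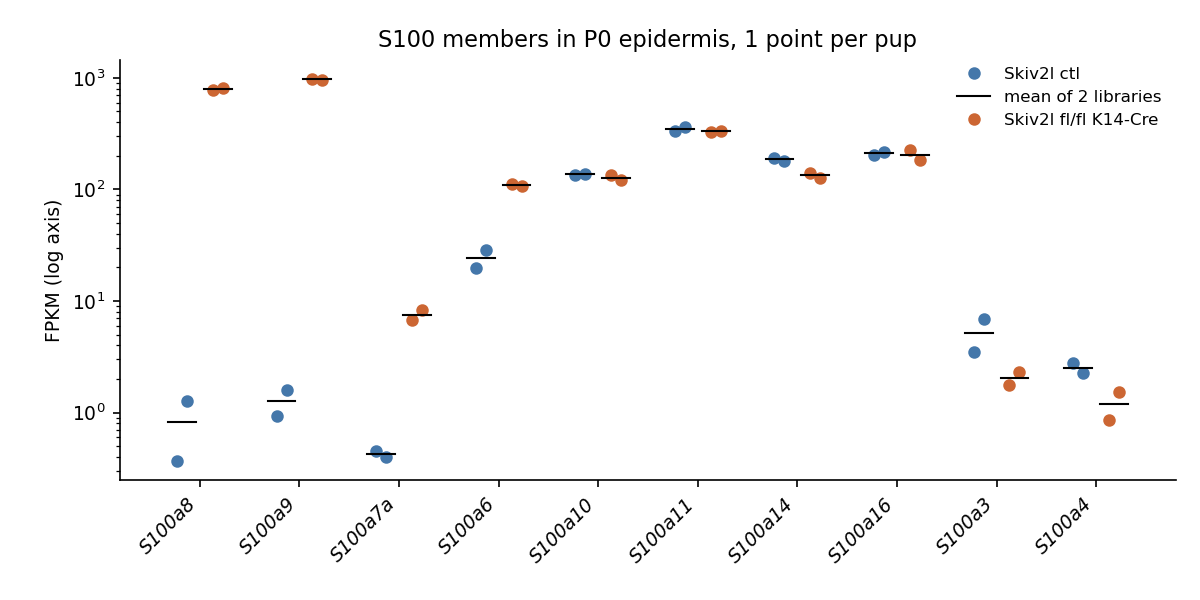
FPKM of the 10 members on a log axis, 1 point per pup, with control pups (Skiv2l ctl) in blue, knockout pups (Skiv2l fl/fl K14-Cre) in orange and a black line at the mean of the 2 pups. S100a8 and S100a9 lie at or below 1.61 FPKM in both control pups and at 774.5 or more in both knockout pups, while S100a10, S100a11 and S100a16 stay close between the groups.

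S100a8 and S100a9 encode the subunits of calprotectin, which withholds zinc and manganese from microbes and acts as an alarmin outside the cell. S100a8 was at 0.370 and 1.27 FPKM in the control pups and at 774.5 and 804 in the knockout pups. S100a9 was at 0.928 and 1.61 FPKM in the control pups and at 974 and 965 in the knockout pups. For both genes the groups were far apart, and even the lower knockout pup exceeded the higher control by 608-fold for S100a8 and 600.2-fold for S100a9. The log2 fold change was 8.81 for S100a8 (SE 0.22, adjusted p = 1.46e-05) and 8.76 for S100a9 (SE 0.15, adjusted p = 1.16e-05), the largest and second largest rises of all tested genes. The control values rest on thin coverage: S100a8 had a mean depth of 1.61 and 5.67 reads per base in control pups and 3172 and 3342 in the knockout pups. S100a8 FPKM was 0.398 and 0.792 of S100a9 FPKM in control pups and 0.795 and 0.833 of it in the knockout pups.

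Neutrophils are also known for high S100a8 and S100a9, so the values of a list of 10 neutrophil genes are given beside them. Ly6g, a neutrophil marker gene, and Elane, which encodes a protein of neutrophil granules, were listed at 0 in all 4 libraries. Of the 10 genes, 9 stayed below 0.5 FPKM in every library. The exception was Cxcr2, a chemokine receptor, at 0.127 and 0.208 FPKM in control pups and 6.51 and 5.56 in knockout pups, with a log2 fold change of 2.59 (adjusted p = 0.000202). The summed FPKM of the list was 0.844 and 1.46 in control pups and 7.77 and 6.43 in knockout pups, and Cxcr2 was the only gene of the list that passed the filter and was tested. The list of 10 monocyte and macrophage genes summed to 27.9 and 36.0 FPKM in control pups and 25.8 and 20.95 in knockout pups. Of its 8 tested genes 2 were called lower and 0 higher, close to the 25.4% of all tested genes called lower. At an unadjusted p under 0.05 in limma 3 were lower and 0 higher, with no share of all tested genes at that threshold given. The part of neutrophils or monocytes in the S100a8 and S100a9 values was not tested.

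The 3 tested genes nearest in profile to S100a8, by Euclidean distance between centred log2(FPKM + 1) values over the 4 libraries, were S100a9 at a distance of 0.22, Krt6a at 2.68 and 2310046K23Rik at 2.91. Krt6a encodes a keratin of wounded epidermis and was at 59.1 and 98.7 FPKM in control pups and 5247 and 5589 in the knockout pups. Within a distance of 0.5 of S100a8 there was 1 gene, S100a9.

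S100a7a, the mouse relative of the human psoriasin gene, rose from 0.457 and 0.400 FPKM in the control pups to 6.80 and 8.34 in the knockout pups. The groups did not overlap, the lowest ratio between them was 14.9, and the log2 fold change was 2.58 (SE 0.14, adjusted p = 0.000208). S100a7a thus changed by a large factor while staying at a low level, below S100a6, S100a8 and S100a9 in every knockout pup.

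S100a6 encodes calcyclin, which binds the calcyclin-binding protein and several annexins and is known for high levels in dividing cells. It was at 19.7 and 28.9 FPKM in the control pups and at 112 and 107 in the knockout pups. The controls differed from each other more than the knockout pups did, and the groups did not overlap. The log2 fold change was 2.15 (SE 0.17, adjusted p = 0.000672), and the ratio of mean FPKM was 4.50. S100a6, S100a7a, S100a8 and S100a9 were called higher in 13 of 13 alternative settings each, including those that left out a pup.

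**Figure D2:**
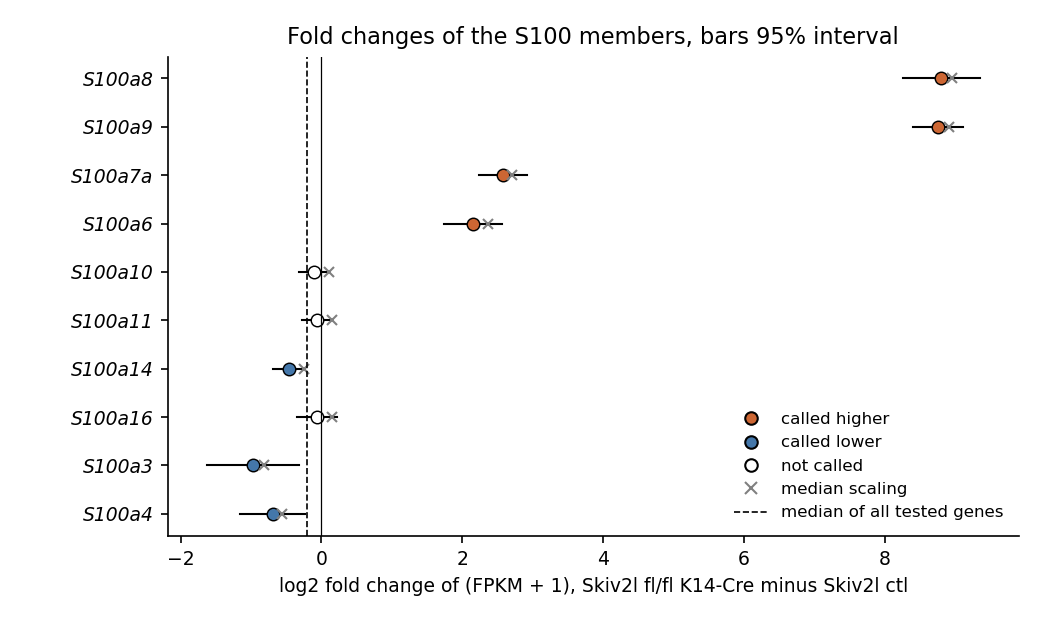
Log2 fold change of (FPKM + 1) of each member, knockout minus control, with bars at the 95% interval from limma, grey crosses for the value with each library scaled to the same median, and a dashed line at the median of all tested genes, -0.20. S100a8, S100a9, S100a7a and S100a6 lie well right of both lines, and the crosses of S100a10, S100a11 and S100a16 lie on the other side of 0 from their points.

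S100a11 and S100a10 bind annexins: S100a11 is a partner of annexin A1 in the cornifying cell, and S100a10 forms a stable complex with annexin A2. S100a11 was the highest member in control pups, with 332.5 and 360.0 FPKM there and 328 and 334 in the knockout pups. S100a10 was at 136 and 139 FPKM in control pups and at 133 and 121 in knockout pups. The groups overlapped for S100a11, while both knockout pups were just below both controls for S100a10. Neither was called: the log2 fold change of S100a11 was -0.06 (95% interval -0.27 to 0.14, adjusted p = 0.583) and became 0.15 with median scaling. That of S100a10 was -0.11 (95% interval -0.32 to 0.10, adjusted p = 0.334) and became 0.10 with median scaling. Of the 75-base stretches of the S100a11 transcript, 37.8% also occur in 2 processed pseudogenes, of which Gm12854 was at 3.58 to 3.79 FPKM in the 4 libraries, so how reads were divided between them is uncertain.

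S100a14 and S100a16 are members of epithelia whose roles are less well defined. S100a16 was at 206 and 217 FPKM in the control pups and at 224 and 183 in the knockout pups. The 2 knockout pups fell on either side of the controls, and the log2 fold change of S100a16 was -0.06 (95% interval -0.34 to 0.22, adjusted p = 0.708), or 0.15 with median scaling. S100a14 was at 192.5 and 179 FPKM in control pups and at 142 and 127 in knockout pups. For S100a14 the groups did not overlap, and the log2 fold change was -0.46 (SE 0.09, adjusted p = 0.0135). The call was lost with median scaling (-0.25, adjusted p = 0.0892), without the first control pup (-0.41, adjusted p = 0.106) and without the second (-0.52, adjusted p = 0.0735).

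S100a3 is known as the S100 protein of the hair cuticle, where the enzyme encoded by Padi3 modifies its arginines. It was at 3.47 and 6.88 FPKM in the control pups and at 1.76 and 2.31 in the knockout pups. The groups did not overlap, but the controls differed from each other by more than the first control differed from either knockout pup. The log2 fold change of S100a3 was -0.97 (SE 0.27, adjusted p = 0.0366). Its mean depth was 0.85 and 1.56 reads per base in control pups and 0.44 and 0.43 in knockout pups. That was the lowest depth of the members in each library, but FPKM gave a different order. By FPKM, S100a3 lay above S100a4 in every library and above S100a7a, S100a8 and S100a9 in both control pups. The reason for the difference was not tested, and depth alone does not rank S100a3 as the least expressed member. Its level was low and its call depended on single pups: it was lost without the second control pup (-0.57, adjusted p = 0.137) and without the first or the second knockout pup (adjusted p = 0.127 and 0.0756), and with median scaling (-0.81, adjusted p = 0.0704).

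The 3 genes nearest in profile to S100a3 were Krtap4-9 at a distance of 0.12, Krt33a at 0.13 and Gm11568 at 0.18, and 173 tested genes lay within a distance of 0.5. Krtap4-9 and Krt33a encode proteins of the hair shaft. Both were highest in the second control pup, at 2.56 and 2.79 FPKM, which follows from their choice by closeness to S100a3. Of a list of 12 hair shaft and inner root sheath genes, not chosen by profile, 11 were found by name, all but Krt85. The list summed to 38.8 and 63.5 FPKM in control pups. In the knockout pups it summed to 37.7 and 39.9, so the sum was highest in the second control pup. Of its 11 tested genes 2 were called lower and 0 higher, a smaller share than the 25.4% of all tested genes called lower. At an unadjusted p under 0.05 from limma 3 were lower and 0 higher, with no all-gene share at that threshold given. The part of hair content in the S100a3 values was not tested.

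S100a4 is known from fibroblasts, leukocytes and other motile cells, where it binds the non-muscle myosin heavy chain encoded by Myh9. It was at 2.78 and 2.27 FPKM in the control pups and at 0.861 and 1.54 in the knockout pups. The groups did not overlap, and the log2 fold change was -0.70 (SE 0.19, adjusted p = 0.0337). The call was lost with median scaling (-0.56, adjusted p = 0.0847), without the first control pup (-0.59, adjusted p = 0.177), without the second (-0.80, adjusted p = 0.11) and without the first knockout pup (-0.47, adjusted p = 0.0872). Of the 75-base stretches of its transcripts, 44.8% also occur in Gm42674, a gene model that overlaps exons of S100a3 and S100a4 on the same strand and was listed at 0 to 0.393 FPKM. Fibroblasts and Langerhans cells are among the cell types that can hold S100a4, and their gene lists are given beside it. The 8 fibroblast genes summed to 169 and 165 FPKM in control pups and 67.6 and 85.7 in knockout pups, with 3 of 6 tested genes called lower and 0 higher, against 25.4% and 8.99% of all tested genes. The 3 were Dcn, Postn and Col1a2, whereas Pdgfra was at 0.299 and 0.250 FPKM in control pups and 0.789 and 0.668 in knockout pups and was the 1 fibroblast gene higher at an unadjusted p under 0.05 in limma (adjusted p = 0.0601). Postn and Dcn made up most of the sum. Postn was at 107 and 95.3 FPKM in control pups and 45.6 and 60.6 in knockout pups. Dcn was at 57.0 and 62.7 against 16.9 and 21.4. Col1a1 and Col3a1 were low, overlapped between the groups and were not called (limma adjusted p = 0.681 and 0.684). The 5 Langerhans cell genes summed to 21.5 and 25.8 FPKM in control pups and 6.63 and 6.29 in knockout pups. Of 4 tested genes 3, Cd74, H2-Aa and H2-Ab1, were called lower and 0 higher, against 25.4% and 8.99% of all tested genes. At an unadjusted p under 0.05 in limma 4 were lower and 0 higher, a count that cannot be set against these adjusted shares. The defining gene Cd207 was at 0.0417 FPKM or less in every library. The part of these cells in the S100a4 values was not tested.

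The order of the levels changed between the groups. In control epidermis it was S100a11, S100a16, S100a14, S100a10, S100a6, S100a3, S100a4, S100a9, S100a8 and S100a7a, and the libraries of neighbours in this order overlapped only between S100a9 and S100a8 and between S100a8 and S100a7a. In knockout epidermis S100a9 and S100a8 came first, then S100a11, S100a16, S100a14, S100a10, S100a6, S100a7a, S100a3 and S100a4, and the libraries overlapped only between S100a14 and S100a10. S100a6 thus ended close below S100a10, at a mean of 109 FPKM against 127.

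The members together made up 0.248% and 0.255% of the transcripts of the control pups in TPM, a scale on which every library sums to the same total, and 0.723% and 0.70% of the knockout pups. Their summed TPM was 2515 ± 42.7 (SD, n = 2) in control pups and 7117 ± 160 (SD, n = 2) in knockout epidermis, a ratio of 2.83. Without S100a8 and S100a9 the summed FPKM of the other 8 members was 893 and 933 in control pups and 949.6 and 883 in the knockout pups. These sums overlapped between the groups, and the ratio of their means was 1.0. S100a8 and S100a9 made up 0.145% and 0.308% of the members' summed FPKM in control pups and 64.8% and 66.7% in the knockout pups. S100a10, S100a11, S100a14 and S100a16 made up 96.9% and 95.6% in control pups and 30.7% and 28.8% in the knockout pups, although their own summed FPKM was 866 and 894 against 828 and 764.

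**Figure D3:**
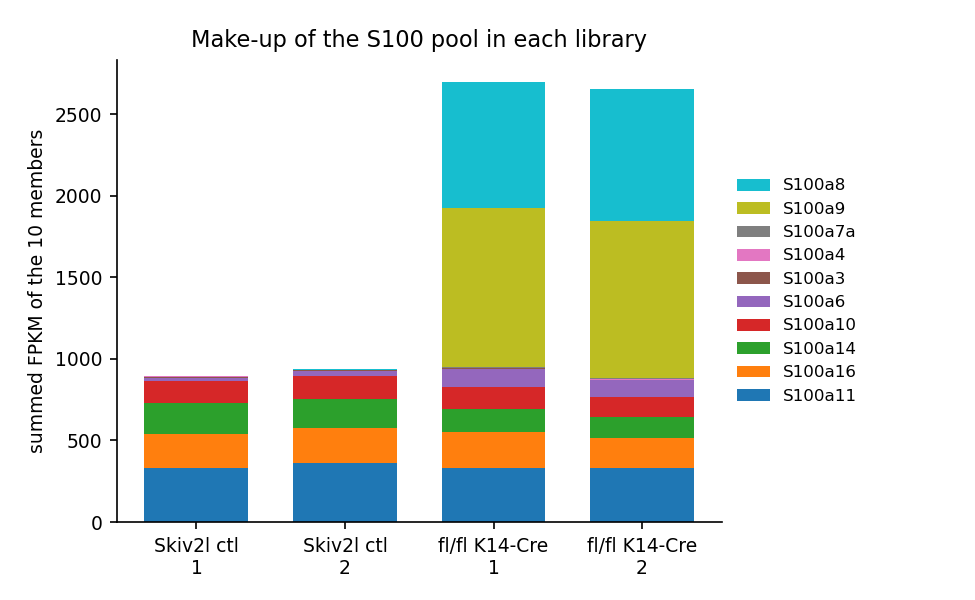
Summed FPKM of the 10 members in each of the 4 libraries, stacked by member, starting at 0. The part below S100a9 and S100a8 has nearly the same height in all 4 bars, between 883 and 949.6 FPKM, and the added height in the knockout pups is S100a9 and S100a8.

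Along the chromosome, the rises were bounded on the side of S100a6. S100a1, S100a13, S100a14, S100a16, S100a3 and S100a4, which come before S100a6, had log2 fold changes between -0.97 and 0.31, and S100a5, between S100a4 and S100a6, was listed at 0 in all 4 libraries. On the other side of S100a9, the next protein-coding gene, Pglyrp4, which encodes a peptidoglycan recognition protein of innate immunity, was at 11.3 and 10.4 FPKM in control pups and at 40.4 and 34.6 in knockout pups, with a log2 fold change of 1.70 (adjusted p = 0.000346). The gene after it, Gm5849, was at 0.673 and 0.574 FPKM in control pups and was listed at 0 in both knockout pups. At the start of the block, Snapin and Chtop had log2 fold changes of -0.86 and -0.43. In the second block, Tchh, which encodes trichohyalin of the inner root sheath, was at 10.4 and 13.3 FPKM in control pups and 4.84 and 4.88 in the knockout pups. The neighbours named here were picked once their values were known. The 4 non-coding genes within the blocks reached at most 0.174 FPKM in the knockout pups and 0.901 in the control pups. Of these, 1 exceeded 0.5 FPKM in at least 1 library.

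**Figure D4:**
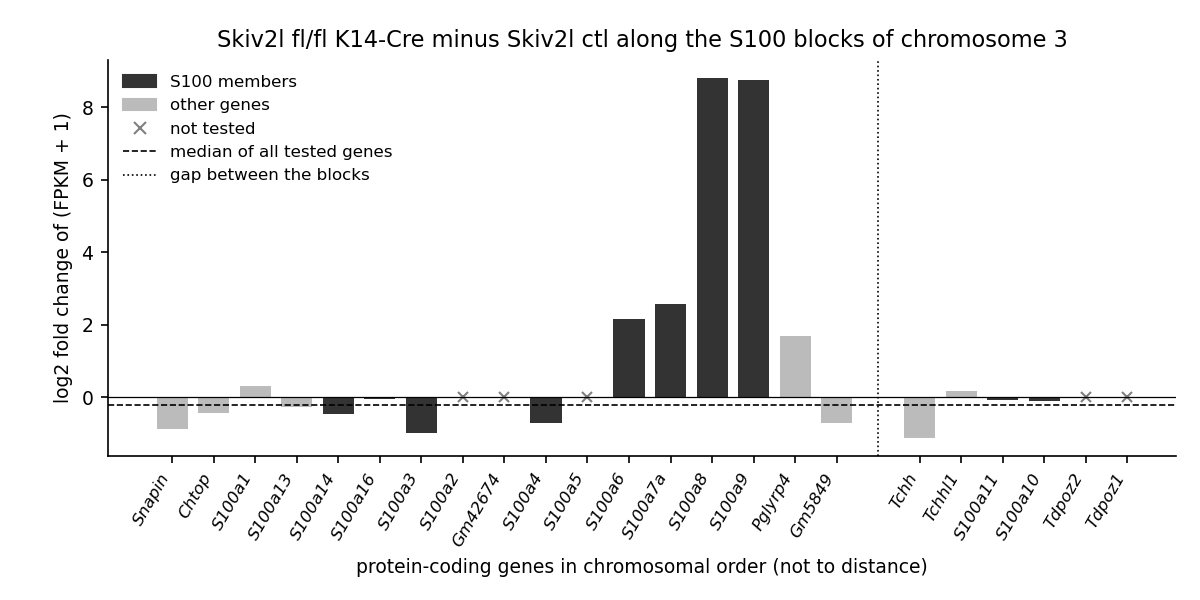
Log2 fold change of (FPKM + 1), knockout minus control, of the protein-coding genes in and next to both S100 blocks of chromosome 3, in gene order and not to distance, with members in black, other genes in grey and untested genes as crosses. The bars of S100a6, S100a7a, S100a8, S100a9 and Pglyrp4 stand together, between 1.70 and 8.81, and the other bars lie between -1.12 and 0.31.

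Of the 9 other genes whose names start with S100, 3 were tested and 0 were called, with 1, S100pbp, below an unadjusted p of 0.05 in limma. S100a1, best known from muscle, was at 2.05 and 3.08 FPKM in control pups and 3.36 and 3.39 in knockout pups (log2 fold change 0.31, adjusted p = 0.187). S100a13, linked to the release of fibroblast growth factor, was at 1.63 and 1.32 against 1.32 and 0.836 FPKM (log2 fold change -0.26, adjusted p = 0.264). S100pbp, which encodes a protein that binds an S100 protein and is not itself of the family, was at 5.38 and 5.96 against 4.02 and 4.78 FPKM (log2 fold change -0.31, adjusted p = 0.102). S100b, S100g, S100z, S100a2 and the pseudogene S100a11-ps stayed below 0.5 FPKM in every library. The gene RefSeq names S100a7l2, listed as 9130204L05Rik, was at 0 in all 4 libraries.

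A list of 8 receptors and 10 binding partners of S100 proteins was read in the same fit. All 18 were tested, and 3 were called higher and 4 lower, against 8.99% and 25.4% of all tested genes, with a median log2 fold change of -0.13. Of the receptors, 0 were called higher, with 1, Tlr4, below an unadjusted p of 0.05 in limma. Tlr4, a receptor proposed for S100A8, was at 0.308 and 0.220 FPKM in control pups and 0.738 and 0.558 in knockout pups. These low values did not overlap, and the log2 fold change was 0.38 (adjusted p = 0.0973). Tlr4 was called higher in 3 alternatives, with no filter (adjusted p = 0.0482), quantile normalization (0.039) and eBayes without a trend (0.0493). Ager, the receptor for advanced glycation end products, was at 2.84 and 3.65 FPKM in control pups and 1.998 and 1.38 in knockout pups, a log2 fold change of -0.66 (adjusted p = 0.03). Its call was lost with median scaling (-0.52, adjusted p = 0.0687) and without any pup but the first knockout pup (adjusted p from 0.0903 to 0.175). Alcam, a cell adhesion molecule reported to bind S100 proteins, fell from 32.4 and 38.4 FPKM to 19.5 and 20.0, a log2 fold change of -0.81 (adjusted p = 0.00333). Bsg, which encodes basigin, a receptor for S100A9, was the most abundant receptor, at 118 and 128 FPKM in control pups and 132 and 133 in the knockout pups. Bsg was not called (log2 fold change 0.11, adjusted p = 0.316) but was with median scaling (0.32, adjusted p = 0.0296). Nptn, a further receptor for S100A8, had a log2 fold change of -0.39 (adjusted p = 0.0503) and was called lower in 4 alternatives, with adjusted p from 0.0233 with the replicate block to 0.0494 with a pseudocount of 0.1. Mcam, Cd36 and Cd33 had values between -0.24 and -0.09 with adjusted p of 0.179 or more, and Mcam was called lower without the first knockout pup (-0.40, adjusted p = 0.045).

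Among the binding partners, the annexins did not move in 1 direction. Anxa6 was at 19.0 and 17.4 FPKM in control pups and 6.87 and 5.41 in knockout pups, a log2 fold change of -1.44 (adjusted p = 0.00102). Anxa11, a partner of S100a6, was at 19.9 and 19.2 FPKM against 27.5 and 26.1, a log2 fold change of 0.44 (adjusted p = 0.0123). The groups did not overlap for either annexin, although the call of Anxa11 was lost without either control pup (adjusted p = 0.0858 and 0.101). Anxa1 and Anxa2, the partners of S100a11 and S100a10, were abundant, at 270 to 332 and 497 to 574 FPKM over the 4 libraries. Neither was called: the log2 fold change was 0.14 for Anxa1 (95% interval -0.12 to 0.40, adjusted p = 0.317) and -0.17 for Anxa2 (95% interval -0.37 to 0.03, adjusted p = 0.151), with Anxa2 at 0.04 under median scaling. Anxa1 was called higher with median scaling (0.36, adjusted p = 0.0417), and Anxa2 was called lower with quantile normalization (-0.28, adjusted p = 0.0333).

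Myh9, the myosin bound by S100a4, was at 102 and 108 FPKM in control pups and 154 and 131 in knockout pups, a log2 fold change of 0.44 (adjusted p = 0.0224). The call of Myh9 was lost without the first or second control pup (adjusted p = 0.142 and 0.104) and without the first knockout pup (0.0529). Cacybp, the calcyclin-binding protein, was at 16.5 and 13.9 FPKM in control pups and 10.7 and 12.0 in the knockout pups, opposite in direction to S100a6. Its log2 fold change was -0.39 (adjusted p = 0.0457), and the call was lost when any 1 pup was left out (adjusted p from 0.058 to 0.257) and with median scaling (-0.20, adjusted p = 0.295). Dysf, which encodes dysferlin, a membrane repair protein, stayed low, at 0.0905 and 0.0377 against 0.631 and 0.520 FPKM. Its log2 fold change was 0.57 (adjusted p = 0.0317), and the call was lost when any 1 pup was left out (adjusted p from 0.0693 to 0.0991). Padi3 was at 1.06 and 1.75 FPKM in control pups and 0.677 and 0.573 in the knockout pups, again highest in the second control as S100a3 was, and was not called (log2 fold change -0.55, adjusted p = 0.0595) except with TPM (-0.84, adjusted p = 0.0437). Ahnak, a scaffold bound by S100a10, and Sugt1, a partner of S100a6, had log2 fold changes of 0.08 and -0.04 with adjusted p of 0.683 and 0.879.

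**Figure D5:**
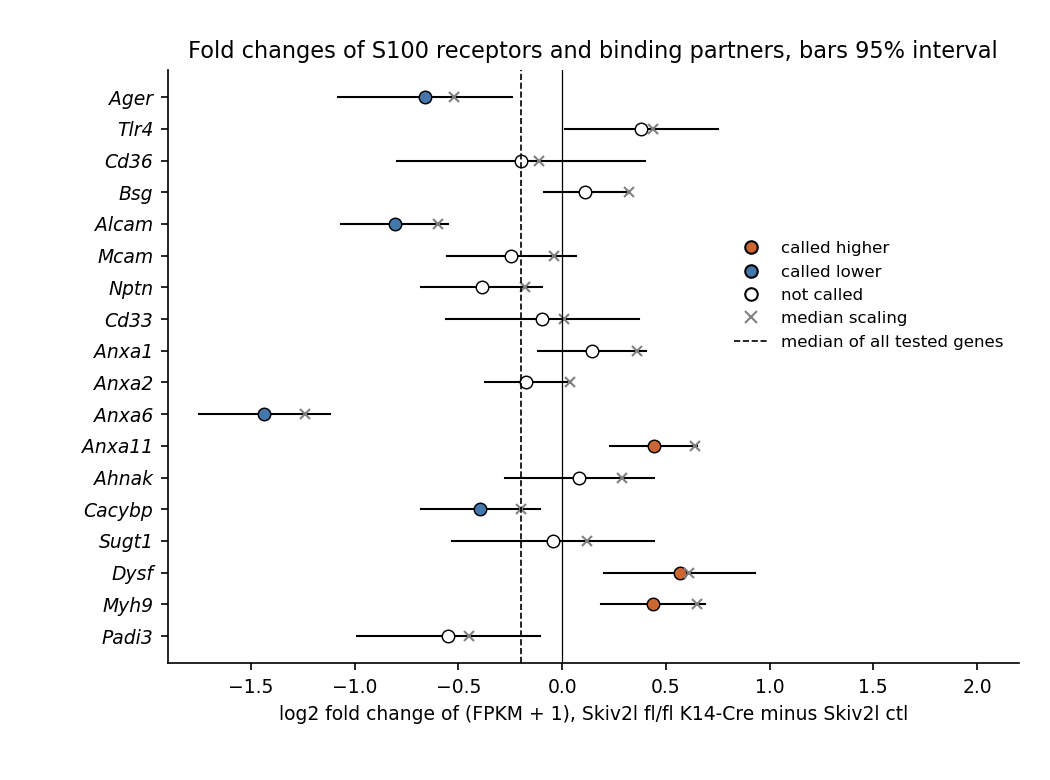
Log2 fold change of (FPKM + 1) of the 8 receptors, from Ager to Cd33, and the 10 binding partners, from Anxa1 to Padi3, knockout minus control, drawn as for the members with 95% intervals from limma and grey crosses for median scaling. All points lie between -1.44 and 0.57, on this scale below the rise of each member called higher. The ratio of mean FPKM was nonetheless 8.98 for Dysf, at low FPKM, against 4.50 for S100a6.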

How the data were processed

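Total RNA from P0 epidermis of 2 Skiv2l ctl and 2 Skiv2l fl/fl K14-Cre pups was analysed. The authors made the tables with an institutional RNA-seq workflow on GRCm38 (per the submitters' notes). The aligner, strand setting and read length are not given in the sources used here. For each gene the authors deposited FPKM, in which fragments are divided by transcript length and library size. They also deposited TPM, which gives every library an equal total. The last deposited column, coverage, is the mean read depth per base, and its most frequent ratio to FPKM gave the aligned gigabases. No counts were used, so counting error could not be computed, and the number of pups limits precision.

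Following the study's filter, 13609 of 21921 protein-coding genes (GENCODE M21) with FPKM above 0.5 in at least 1 library were tested with limma 3.58.1 in R 4.3.3 (lmFit, eBayes with a trend, two-sided) on log2(FPKM + 1), with Benjamini-Hochberg adjustment over all of them. The members and lists were chosen with earlier results of these data known. Named were all members, the other S100 genes, every receptor and partner, Skiv2l, and the 3 genes nearest in profile to the members with the largest rise and fall. Cell type markers and chromosomal neighbours are named beside results they touch. Shared sequence was counted over 75-base stretches of GENCODE M21 transcripts, a length assumed here. The fit was tested on simulated data. Alternatives were a pseudocount of 0.1, FPKM above 1 in at least 2 libraries, no filter, TPM, median scaling, quantile normalization, all annotated genes, eBayes without a trend, a block for the replicate number, and leaving out each pup.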

Additional observations from a re-analysis of the deposited data

How the results depend on the processing

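The 4 members called higher stayed called in all 13 alternatives. The 3 called lower were less firm: 0 were called lower with median scaling (3 at an unadjusted p under 0.05 from limma), 1 with no filter, 1 with quantile normalization and 1 with all annotated genes, and 0 to 2 when 1 pup was left out. Of the partners and receptors, 5 in place of 3 were called higher and 2 in place of 4 lower with median scaling, 2 lower with no filter, and 0 to 2 higher and 2 to 4 lower when 1 pup was left out. The lone pup of a group was then assumed to vary like the others. Median scaling turned the log2 fold change of S100a10 to 0.10, S100a11 to 0.15, S100a16 to 0.15, Cd33 to 0.01, Anxa2 to 0.04 and Sugt1 to 0.12. Quantile normalization turned Cd33 to 0.09, Ahnak to -0.05 and Sugt1 to 0.18. When 1 pup was left out, the log2 fold change ran from -0.21 to 0.09 for S100a16, -0.49 to 0.09 for Cd36, -0.30 to 0.11 for Cd33, -0.13 to 0.30 for Ahnak and -0.32 to 0.24 for Sugt1. The cause was not tested. None of these reversed values was called.

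With the replicate block, 4 members were called higher and 3 lower, and 2 partners higher and 5 lower. Deviations of pups with the same number from their group means had a correlation of -0.077 over the tested genes, and the pups share only a number. With 2 pups a group, both pairs must give the same value. Depth limits S100a8, S100a9 and S100a7a in the controls. Their fold changes and that of S100a3 depend on the pseudocount: with 0.1 they were 9.94, 9.52 and 3.86, and -1.24 for S100a3.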
